A study of Mus musculus with 2 samples.

Results

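Lumicrine signalling genes, 10 in number, were followed through polyadenylated RNA of mouse adipose tissue: the ligand Nell2, the receptor Ros1, the phosphatase Ptpn6, the transcription factors Etv1, Etv4 and Etv5, the feedback inhibitors Dusp6, Spry2 and Spry4, and the secreted protease Ovch2. They were chosen by symbol, for their known part in the initial segment of the epididymis, with earlier results of these data known. All 10 were found among the 43346 mouse genes of the deposited tables. The RNA came from adipose tissue of a male C57BL/6J mouse, 10 weeks old, with no treatment or altered allele named in the labels. It forms 1 group of 1 biosample (biological replicate 1), sequenced as technical libraries 1 and 2. The labels place library 2 in 2015 and outside the 2014 publication they name. With n = 2 libraries from the same biosample, every SD below measures technical spread, and a difference between the libraries cannot be told apart from one between their dates.

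Lumicrine signalling is signalling through the fluid of a duct. In the mouse, testicular germ cells secrete NELL2, which flows into the epididymis, where sperm mature, and binds the receptor tyrosine kinase ROS1 on the epithelium of its first part, the initial segment. ERK is active in that epithelium, PEA3 transcription factors (ETV1, ETV4 and ETV5) are expressed there, and the epithelium secretes OVCH2, which acts on the sperm protein ADAM3. DUSP6, a phosphatase of ERK, and the Sprouty proteins SPRY2 and SPRY4 are induced by ERK signalling and dampen it, and the phosphatase SHP-1, encoded by Ptpn6, dephosphorylates ROS1.

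Markers of the labelled tissue were present: all 8 adipocyte markers, Adipoq and Fabp4 among them, reached 1 TPM in each library. TPM is a level per transcript length, set to a fixed sum per library. Markers of the epididymis were present as well, although the labels name adipose tissue alone. All 5 markers of the caput, the head of the epididymis, passed 1 TPM in both libraries, with summed levels of 37144 and 39305 TPM in libraries 1 and 2. The adipocyte markers summed to 5075 and 14035 TPM, and 6 endothelial markers, all past 1 TPM, to 74.5 and 298 TPM. In bulk RNA such as this, fewer cells of a type and less RNA per cell cannot be told apart. Expected counts, the estimated reads per gene, summed to 19954869 in library 1 and 19256807 in library 2. Mitochondrial genes and their nuclear copies accounted for 51.7% of all TPM in the first library and 15.9% in the second, which lowers the TPM of every other gene in library 1 by more.

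Promoter windows of 4 genes are shown as RefSeq gives them (GRCm38.p6), each the 250 bases upstream of an annotated start, read 5′ to 3′ on the transcribed strand. They belong to the receptor, the gene with the highest level, the ERK phosphatase, and the upstream start of Ptpn6, whose share of reads differed between the libraries. Capitals mark AGGAAG or its reverse complement CTTCCT, which holds the core that ETS factors such as the PEA3 proteins bind, searched on both strands.
Ros1, chr10:52195245-52195494 (minus strand): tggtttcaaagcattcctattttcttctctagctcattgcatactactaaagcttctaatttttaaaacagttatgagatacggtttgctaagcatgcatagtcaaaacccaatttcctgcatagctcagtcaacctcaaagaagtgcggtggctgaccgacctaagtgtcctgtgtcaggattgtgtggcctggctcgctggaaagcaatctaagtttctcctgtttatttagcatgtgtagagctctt
Ovch2, chr7:107801180-107801429 (minus strand): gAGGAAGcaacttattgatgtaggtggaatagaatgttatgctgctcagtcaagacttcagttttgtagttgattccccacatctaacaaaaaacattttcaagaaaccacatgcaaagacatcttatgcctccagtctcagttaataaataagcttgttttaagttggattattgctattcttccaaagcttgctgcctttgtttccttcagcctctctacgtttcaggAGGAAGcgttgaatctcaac
Dusp6, chr10:99262981-99263230 (plus strand): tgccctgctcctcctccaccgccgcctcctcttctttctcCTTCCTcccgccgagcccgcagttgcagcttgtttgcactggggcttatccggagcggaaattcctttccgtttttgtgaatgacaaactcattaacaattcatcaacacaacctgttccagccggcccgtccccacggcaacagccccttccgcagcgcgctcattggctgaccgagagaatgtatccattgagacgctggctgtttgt
Ptpn6, chr6:124738710-124738959 (minus strand): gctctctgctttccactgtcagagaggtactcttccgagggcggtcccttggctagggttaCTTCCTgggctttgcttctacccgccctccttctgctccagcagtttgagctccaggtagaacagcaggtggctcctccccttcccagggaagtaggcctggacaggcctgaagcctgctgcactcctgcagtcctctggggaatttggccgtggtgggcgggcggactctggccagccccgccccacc

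The Ovch2 window holds 2 matches, both on the transcribed strand, which start 249 and 20 bases upstream of the RefSeq start. The Ovch2 start in GENCODE M21 lies 29 bases upstream of the RefSeq start, so the nearer match falls inside the M21 transcript. A single match lies on the opposite strand in the Dusp6 window, 210 bases upstream, and another on the opposite strand in the Ptpn6 window, 189 bases upstream. The Ros1 window holds 0 matches of this 6-base string, and the shorter core inside it was not searched for alone. RefSeq windows were found for 7 of the 10 genes, and 4 of their 9 windows hold the motif, against 29.48% of all 32851 windows. A match is a string of letters and not a measured binding site. The windows also differ in base composition: GC content was 38.4% for Ovch2 and 41.6% for Ros1, below the lower quartile of all windows (45.2%), and 63.2% for Ptpn6, above the upper quartile (61.2%).

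At least 1 TPM was found in both libraries for 9 of the 10 genes, and the exception was the ligand. So it was for 13220 of all 43346 genes. Of the 18275 genes with 10 or more counts in sum, all 10 among them, 13199 reached that level. By mean level the 10 genes ran Ovch2, Etv5, Ros1, Dusp6, Etv4, Ptpn6, Etv1, Spry2, Spry4 and Nell2. The place of Ptpn6 depends on the estimate, since the authors' posterior mean puts it at 71.9 TPM in place of 11.8, above Etv5 at 55.7. Most of that posterior mean fell on 2 transcripts of 120 and 134 bases, which had 0 expected counts in both libraries. With mitochondrial genes and copies left out of the TPM sum, Ptpn6 stood at 15.5 TPM, below Etv1 at 18.7 and Spry2 at 16.5. Of the 9 neighbouring pairs in the order first given, 6 had overlapping ranges over the libraries. Gaps were left between Ovch2 and Etv5, between Spry2 and Spry4, and between Spry4 and Nell2. The median of the 10 genes was 9.95 and 27.0 TPM in libraries 1 and 2, against 4.32 and 10.5 TPM over all genes tested.

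**Figure D1:**
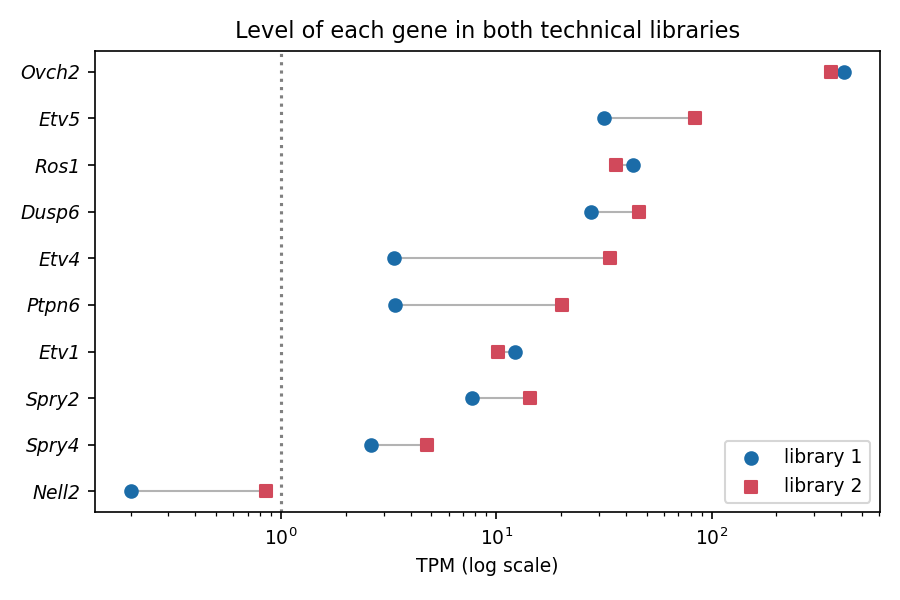
Level of each of the 10 genes in TPM (log axis) in library 1 (circles) and library 2 (squares), ordered by mean. The dotted line marks 1 TPM, and Nell2 is the gene that lies below it in both libraries, at 0.20 and 0.85 TPM.

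The ligand was close to the detection floor. Nell2 (ENSMUSG00000022454; chromosome 15, 95075230 to 95528559, mm10, minus strand) received 11 counts in library 1 (95% Poisson interval 5.49 to 19.7) and 36 counts in library 2 (25.2 to 49.8), or 0.20 and 0.85 TPM. It ranked 17015 of 43346 genes by mean level. All of its estimated counts fell on 1 of the annotated transcripts, ENSMUST00000166170. Its paralogue Nell1, a secreted protein of the same family, had 6 and 8 counts. The tables list Gm1673, the earlier symbol of the gene for the NELL2 cofactor NICOL1, at 0 counts in library 1 and 50 in library 2, where it reached 12.0 TPM. The 95% exact interval of its log2 ratio, library 2 over library 1, starts at 3.32. Its GC content is 67.4%, and after subtraction of a GC trend, described further on, its log2 ratio was 2.10 and it was not called.

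Transcripts of germ cells, the known source of NELL2, were present. All 10 male germ cell markers passed 1 TPM in both libraries, and they summed to 310 and 1482 TPM in libraries 1 and 2. The markers with the highest mean were the protamine genes Prm2 (2.94 and 516 TPM) and Prm1 (45.0 and 257 TPM), which encode the proteins that pack sperm DNA, and Smcp (136 and 160 TPM), of the sperm mitochondrial capsule. Prm2 led through library 2 alone, since it was the lowest of the 10 markers in library 1. Adam3, the sperm surface protein on which OVCH2 acts, was named after its values were seen and stood at 18.4 and 16.4 TPM. Of the nerve and Schwann cell markers 2 of 6 reached 1 TPM in each library, with sums of 5.40 and 22.4 TPM. What part either cell type has in the Nell2 counts was not tested.

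The receptor was well measured in both libraries. Ros1 (ENSMUSG00000019893; chromosome 10, 52045721 to 52195244, minus strand, 45 exons in its longest transcript) received 5330 and 3481 counts in libraries 1 and 2, which is 43.2 and 36.0 TPM (mean 39.6 ± 5.10, SD, n = 2). It ranked 2780 of 43346. The TPM of Ros1 was 216 times that of Nell2 in library 1 and 42.3 times in library 2. The nearest relatives of ROS1 among receptor kinases were at the floor: Alk was at 0 counts in both libraries and Ltk at 0 and 3. The transcript ENSMUST00000020045 carried 46.8% of Ros1 counts in library 1 and 44.2% in library 2. The remaining 53.2% and 55.8% fell on transcripts that the later GENCODE M21 annotation does not hold, and the intervals of that share (51.9 to 54.6 and 54.2 to 57.5) overlap.

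Ovch2 had the highest level of the 10 genes. It encodes a secreted protease-like protein (ENSMUSG00000048236; chromosome 7, 107781544 to 107801208, minus strand, 16 exons) and received 12455 and 8449 counts. Its level was 412 and 357 TPM, with a mean of 385 ± 39.2 (SD, n = 2) and a rank of 270 of 43346. Ovch2 exceeded Ros1 by 9.55 times in library 1 and by 9.92 times in library 2, although both had fewer counts in library 2. Levels of Ovch2 lay near those of Adam28, a membrane protease of the epididymis (439 and 437 TPM), and 34.4 and 43.7 times below those of the caput gene Gpx5.

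Other genes of the initial segment were higher still. All 6 listed genes passed 1 TPM in both libraries, and their medians were 1639 and 1753 TPM. The lipocalin genes Lcn9 (3022 and 3115 TPM) and Lcn8 (1508 and 5649 TPM) and the ribonuclease-like gene Rnase9 (3032 and 1708 TPM) led the list by mean level. By the comparison of libraries given further on, Lcn8 was called higher in library 2 (log2 ratio 1.17) and Rnase9 lower (-1.56), where 30.1% of all tested genes were called higher and 18.4% lower. With the GC trend removed these ratios were 0.15 and -0.50, and neither gene was called.

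The PEA3 factors differed in their order between the libraries below a common leader. Etv5 (ENSMUSG00000013089; chromosome 16, 22381309 to 22439719, minus strand) had levels of 31.7 and 84.0 TPM, from 1590 and 4216 counts. Etv1 (ENSMUSG00000004151; chromosome 12, 38779380 to 38870484, plus strand) was at 12.2 and 10.2 TPM, from 816 and 512 counts. Etv4 (ENSMUSG00000017724; chromosome 11, 101769742 to 101785371, minus strand) was at 3.34 and 33.9 TPM, from 72 and 674 counts. Etv5 was therefore the highest in both, while Etv1 exceeded Etv4 in library 1 and Etv4 exceeded Etv1 in library 2. Etv5 made up 67.1% and 65.6% of the summed TPM of the family (mean 66.3 ± 1.05, SD, n = 2). The share of Etv4 was 7.07% and 26.5%, and that of Etv1 was 25.9% and 7.97%.

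**Figure D2:**
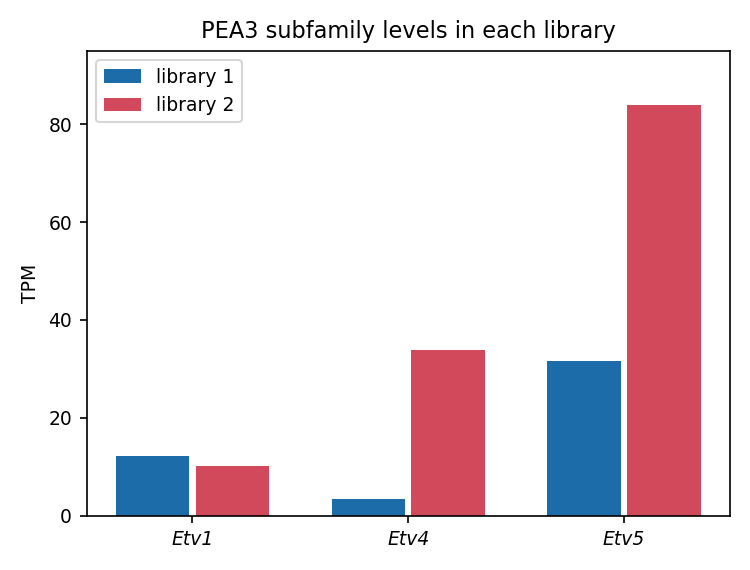
Level in TPM of Etv1, Etv4 and Etv5 in library 1 and library 2; each bar is 1 library. Etv5 is the tallest in both, and Etv1 and Etv4 change places between the libraries.

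Among 17 ETS family genes, 16 reached 1 TPM in each library. By mean level Etv5 stood beside Ehf (81.1 and 55.1 TPM) and Elf3 (6.64 and 75.9 TPM), ETS factors of epithelia. Ehf had the higher level in library 1 and Etv5 in library 2, with Ehf at 2.56 and 0.656 times the TPM of Etv5.

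The feedback inhibitors kept their order in both libraries. Dusp6 (ENSMUSG00000019960; chromosome 10, 99263231 to 99267489, plus strand) was at 27.5 and 45.9 TPM, from 1226 and 1603 counts. Spry2 (ENSMUSG00000022114; chromosome 14, 105891947 to 105896819, minus strand) was at 7.67 and 14.4 TPM, from 249 and 365 counts. Spry4 (ENSMUSG00000024427) was at 2.62 and 4.77 TPM, from 197 and 281 counts. Dusp6 was 3.58 and 3.20 times as high as Spry2, and 10.5 and 9.61 times as high as Spry4. A further Sprouty gene, Spry1, was above both, at 14.0 and 32.9 TPM. Within the Sprouty genes, Spry1 made up 57.6% and 63.2%, Spry2 31.6% and 27.6%, and Spry4 10.8% and 9.17% of the summed TPM.

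The phosphatase gene Ptpn6 had more counts in library 2. It (ENSMUSG00000004266; chromosome 6, 124720707 to 124738714, minus strand) received 68 and 499 counts in libraries 1 and 2, which is 3.38 and 20.2 TPM. Exons of Gm20531, a gene on the opposite strand, overlap it, with 4 and 12 counts of its own. The sources used here do not state whether strand was used in counting, so some Ptpn6 counts are uncertain. Ptpn6 is expressed in leukocytes from a downstream promoter and in epithelia from an upstream one. Of the leukocyte markers, 9 of 11 passed 1 TPM in both libraries and none was at 0. They summed to 2396 and 3798 TPM. By mean level they were led by Cd52 (2155 and 3330 TPM), which the epididymal epithelium also expresses at high level, then Lcp1 (155 and 176 TPM) and Tyrobp (7.60 and 91.8 TPM). Of the epithelial markers, 6 of 7 passed 1 TPM in both, with sums of 154 and 953 TPM and none at 0. Their part in the Ptpn6 level was not tested.

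Of 5 annotated groups of Ptpn6 starts, 3 carried estimated counts. Transcripts from the upstream start held 6.79 estimated counts in library 1, or 10.3% of the gene (95% exact interval 4.24 to 20.1), and 246.62 in library 2, or 49.5% (45.0 to 54.0). Transcripts from the start 5560 bases downstream held 55.03 counts, or 80.9% (69.5 to 89.4), and 245.24 counts, or 49.1% (44.6 to 53.6). A start 10006 bases downstream held 6.18 and 7.14 counts, or 8.82% and 1.40%. The intervals of the libraries do not overlap for the share of counts of the first or the second of these starts. By share of TPM, which weighs short transcripts more, the upstream start of Ptpn6 took 7.53% and 44.3%, the second 46.9% and 44.6%, and the third 45.6% and 11.1%. The upstream share was thus the higher in library 2 on both scales, while the second start differed by share of counts and hardly by share of TPM. Counts were split among transcripts by the authors' estimate, whose own error the intervals leave out. By the authors' posterior means, another estimate in the same tables, the upstream start took 1.94% and 11.2% of Ptpn6 TPM and the second start 5.78% and 14.5%. There, 2 transcripts of a further start, 120 and 134 bases long and with 0 expected counts, together took 89.3% and 69.7%.

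Etv5 also differed in its starts. Its upstream start held 1012.83 estimated counts in library 1, or 63.7% (61.3 to 66.1), and all 4216 counts in library 2. A start 3205 bases downstream held 577.17 counts, or 36.3% (33.9 to 38.7), in library 1 and 0 in library 2, where the exact interval reaches 0.0875%. The first exon of the main upstream transcript, ENSMUST00000079601, has a GC content of 78.3%, and that of the downstream transcript, ENSMUST00000168774, 48.1%. By posterior means the downstream start took 30.3% of the Etv5 level in library 1 and 1.18% in library 2. In Etv1, the upstream start held 96.0% of the counts in library 1 and 100% in library 2. By posterior means it took 88.6% and 83.4% of the Etv1 level, so the direction between the libraries depends on the estimate. In Etv4, the upstream start held 83.3% of the counts in library 1 and 85.2% in library 2. A start 13190 bases downstream held 16.7% and 14.8%. By share of TPM that downstream start took 31.5% in each library, on 1 transcript of 882 bases not annotated as protein-coding. Its TPM is part of the Etv4 level in the PEA3 shares. Dusp6, Spry2, Spry4 and Ovch2 have 1 quantified start each.

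**Figure D3:**
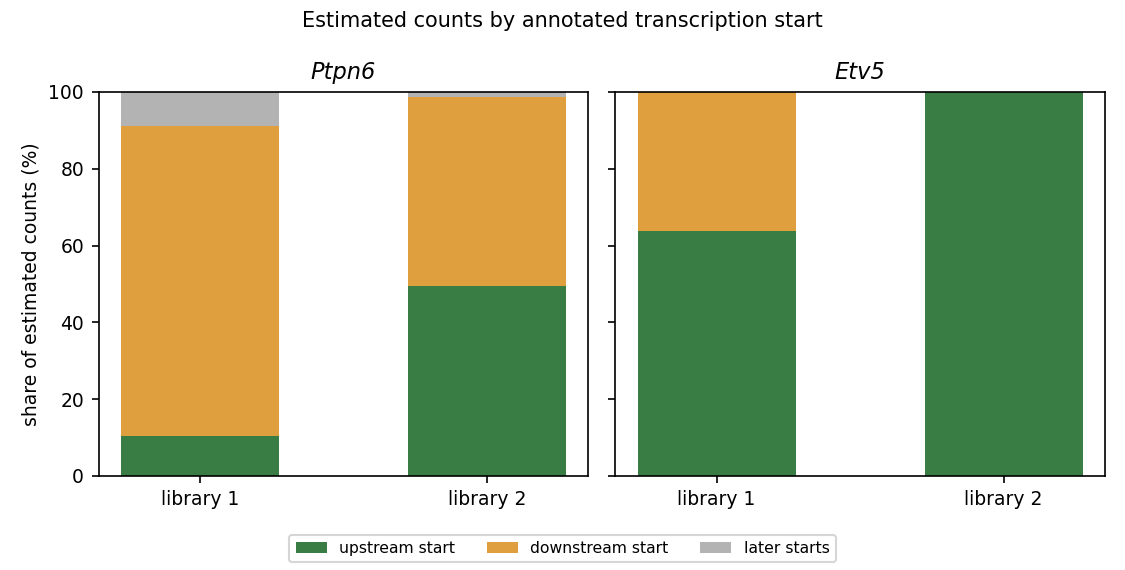
Share of the estimated counts of Ptpn6 and Etv5 (percent) by annotated transcription start in each library, upstream start at the bottom of each bar. The upstream share of Ptpn6 is 10.3% in library 1 and 49.5% in library 2, and that of Etv5 is 63.7% and 100%.

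The counts of the libraries were then compared by a two-sided exact binomial test after TMM scaling, with Benjamini-Hochberg adjustment over 18275 genes. A call required an adjusted p under 0.05 and a difference of at least 2-fold, and the test covers counting error between these libraries only. In library 2, 4 of the 10 genes were called higher, where 30.1% of all tested genes were. Another 2 were called lower, against 18.4% of all tested genes. Neither count stands far from its background, and the median log2 ratio of library 2 over library 1 was 0.14 over the 10 genes and 0.02 over all genes tested.

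The genes called higher were Etv4, Ptpn6, Nell2 and Etv5. Etv4 was 7.11-fold higher (log2 ratio 2.83, 95% exact interval 2.49 to 3.21) and Ptpn6 was 5.58-fold higher (2.48, 2.12 to 2.88). Nell2 had a log2 ratio of 1.28 (0.32 to 2.45, adjusted p = 0.0101 in the exact test) and Etv5 one of 1.02 (0.94 to 1.10). Etv1 was called lower, at -1.06 (-1.22 to -0.90), and so was Ros1, at -1.002 (-1.06 to -0.94). Ros1 lay at the threshold itself, and with DESeq2 size factors its log2 ratio was -0.99 and its call was lost, so that 1 of the 10 genes was lower and 4 higher, against 18.2% and 30.2% of all tested genes.

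Ovch2 and the feedback inhibitors were not called. Ovch2 was 1.93-fold lower in library 2 (log2 ratio -0.95, -0.99 to -0.91), just under the required size. Dusp6 differed by -0.00 (-0.11 to 0.11) on the log2 scale, with an adjusted p of 1 in the exact test. The log2 ratio of Spry2 was 0.16 (-0.07 to 0.40, exact test, adjusted p = 0.21) and that of Spry4 was 0.12 (-0.14 to 0.40, adjusted p = 0.421). These intervals leave room for differences of up to 0.40 in the Sprouty genes.

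Scaling sets where 0 lies. With total counts in place of TMM, every log2 ratio was 0.44 higher, and 37.1% of all tested genes were called higher and 6.44% lower. Neither Ros1 (-0.56) nor Etv1 (-0.62) was then called. The TPM of 7 of the 10 genes was higher in library 2, and that of Ros1, Ovch2 and Etv1 was lower. The median TPM over all genes tested was higher there too, at 10.5 against 4.32 in library 1. With the mitochondrial genes and copies left out of the TPM sum, Dusp6 stood at 56.9 and 54.5 TPM, Ros1 at 89.4 and 42.8 TPM, and Ovch2 at 854 and 424 TPM.

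The ratio between the libraries followed the GC content of the transcripts, with a Spearman rho of 0.893 across 12045 genes, which are not independent replicates. The 10 genes ran from 43.8% GC in Etv1 and 45.1% in Ros1 to 55.2% in Ptpn6 and 60.2% in Etv4. The genes called lower were those with the least GC, and the genes called higher were the 4 with the most. Against all genes within 1 percentage point of their own GC content, 6 of the 10 had a ratio between the quartiles. Etv4, for instance, lay above 28.2% of the 393 genes of like GC content, and Ros1 above 32.2% of 1269.

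Outside those quartiles were Spry2, Nell2 and Ptpn6 on the upper side and Ovch2 on the lower side. Spry2 exceeded 93.7% of 1305 genes of like GC content, whose median log2 ratio was -0.66 against its own 0.16. Nell2 exceeded 79.2% and Ptpn6 75.6% of theirs, although Nell2, at 11 and 36 counts, is itself below the mean count required of those genes. Ovch2 exceeded 13.3% of 1412 genes, with quartiles of -0.78 and -0.13 around a median of -0.51.

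**Figure D4:**
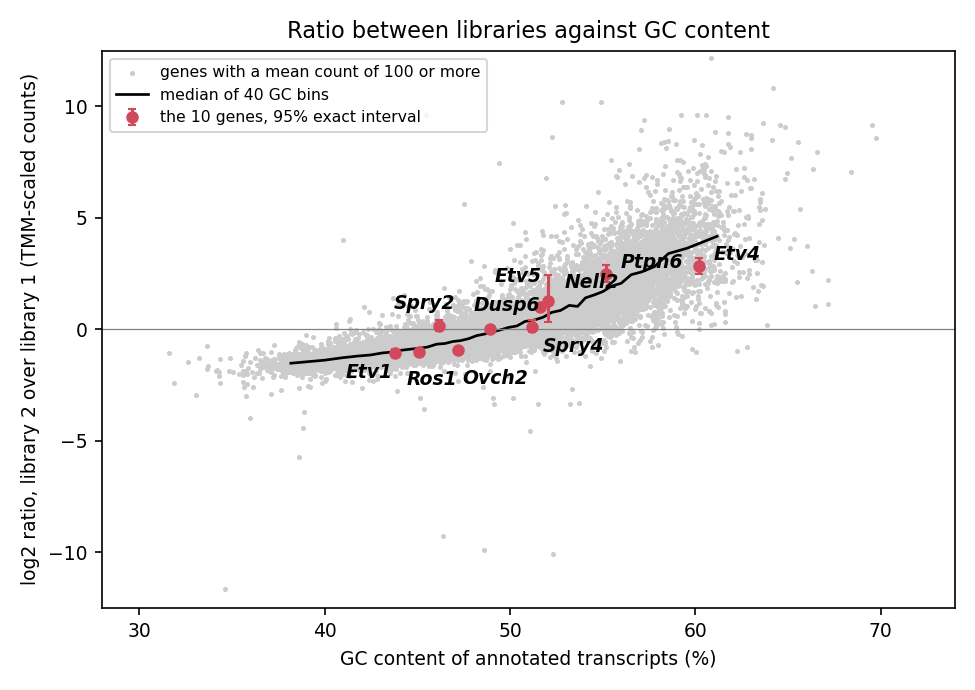
Log2 ratio of TMM-scaled counts, library 2 over library 1, against the GC content of the annotated transcripts (percent); grey points are genes with a mean count of 100 or more, the line joins the medians of 40 GC bins, and red points with 95% exact intervals are the 10 genes. The red points run from Etv1 at -1.06 to Etv4 at 2.83. With the trend subtracted, Spry2 (0.83), Ptpn6 (0.78), Nell2 (0.52) and Etv5 (0.48) lie farthest above it, and Etv4 (-0.81) and Ovch2 (-0.44) farthest below.

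With the GC trend subtracted, 0 of the 10 genes were called, where 9.19% of all genes tested were called higher and 8.58% lower. The log2 ratios then ran from -0.81 in Etv4, whose sign turned, to 0.83 in Spry2 (0.60 to 1.07). Adjusted p stayed under 0.05 in the exact test for 7 of the 10, at differences below 2-fold. The share of all tested genes under 0.05 at any fold was not counted, so these 7 have no background to be set against. Ovch2 was at -0.44 (-0.48 to -0.40), Ros1 at -0.15 (-0.21 to -0.09), Etv5 at 0.48 (0.40 to 0.57) and Ptpn6 at 0.78 (0.43 to 1.18). At the GC content of Etv4 the quartiles of all genes were 2.69 and 4.86, so that a ratio with the trend removed is least certain there. Whether GC content or the RNA itself set the differences was not tested.

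The ERK cascade that lies between ROS1 and the PEA3 factors was present throughout. Of 19 genes, 18 reached 1 TPM in each library, and the medians were 18.5 and 40.03 TPM. The kinase genes Araf (50.7 and 161 TPM) and Mapk3, which encodes ERK1 (18.5 and 76.8 TPM), were among the highest by mean level. In library 2, 5 of the 19 were called higher (Src, Hras, Ksr1, Map2k2 and Mapk3) and 4 lower (Frs2, Sos1 and Braf among them), names given after their values were seen. Over all tested genes 30.1% were higher and 18.4% lower, so both counts lie near the background. With the GC trend removed, Map2k2, which encodes the ERK kinase MEK2, was the 1 gene still called. It had 21 and 1519 counts, and its log2 ratio went from 5.76 to 2.36.

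Feedback regulators of ERK, a list of 12 matched genes that includes Dusp6, Spry2 and Spry4, were lower, with medians of 6.33 and 13.6 TPM. A level of 1 TPM was reached in each library by 11 of the 12. Dusp6 was the highest by mean, followed by Spry1 and Spred1, a Sprouty-related inhibitor at 21.1 and 13.3 TPM. Of the 12, 2 were called higher in library 2 (Dusp5 and Dusp9) and 1 lower (Spred1), against 30.1% and 18.4% of all tested genes. The median log2 ratio of the list was 0.14, and -0.64 with the GC trend removed, when 4 genes were called lower (Dusp4, Dusp7, Spry1 and Spred3) and 0 higher, against 8.58% and 9.19% of all genes tested. Among the 17 ETS factors 4 were called higher and 4 lower, near the same 30.1% and 18.4%, and 0 with the trend removed.

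Other genes that ERK is known to induce reached 1 TPM in each library in 6 of 8 cases. Fos (17.4 and 56.4 TPM), Phlda1 (24.7 and 46.0 TPM) and the cyclin gene Ccnd1 (22.2 and 47.3 TPM) were the highest. Of the 7 that could be tested, 3 were called higher (Egr1, Ier2 and Ier3) and 0 lower, against 30.1% and 18.4% of all tested genes. With the GC trend removed, Phlda1 alone among them was called, at a log2 ratio of -2.64.

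**Figure D5:**
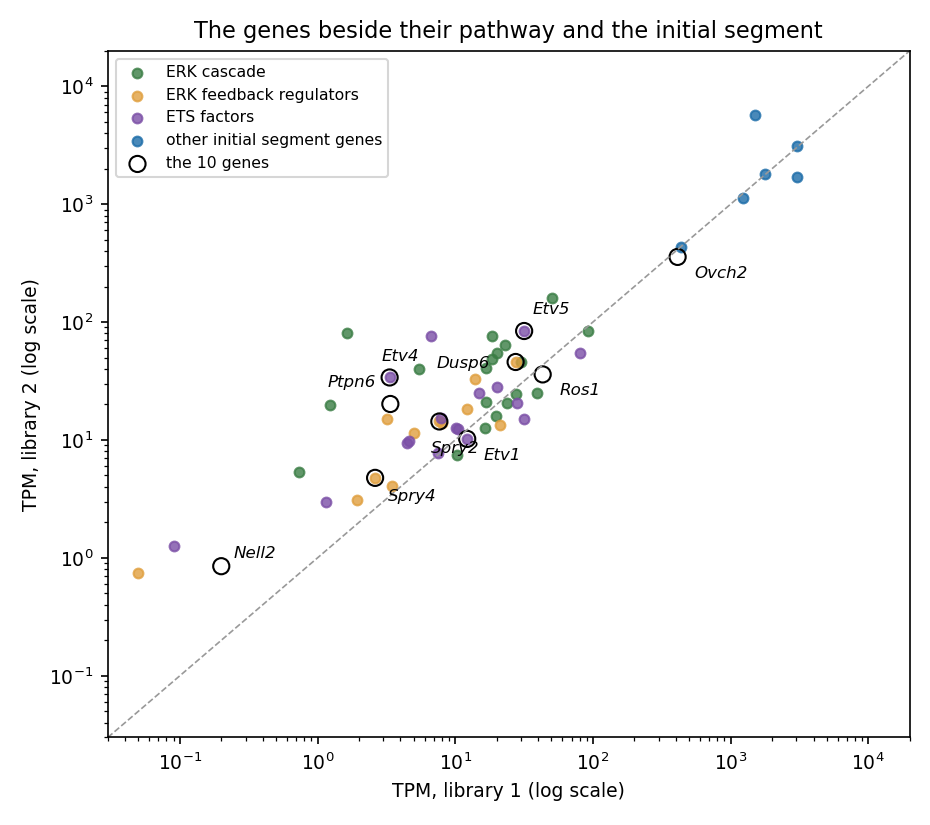
TPM in library 1 against library 2 (log axes) for the ERK cascade, ERK feedback regulators, ETS factors and other initial segment genes, each point 1 gene, with the 10 genes ringed and named; the dashed line marks equal levels. Ovch2 (412 and 357 TPM) lies below the other initial segment genes and Nell2 (0.20 and 0.85 TPM) at the low end.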

How the data were processed

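Both technical libraries of 1 adipose biosample were used. The authors deposited expected counts of genes and of transcripts, made by estimation from transcriptome alignments, TPM and FPKM, and the percent of a gene's TPM in each transcript, per the file headers. The files use mm10 and annotation M4, as the README files state. Aligner and quantifier: not given in the sources used here. Symbols, positions and GC content came from GENCODE M21, and promoter windows from RefSeq (GRCm38.p6).

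All 10 genes and the 13 lists were chosen with earlier results of these data known. All 10 genes are named, with the 3 highest genes of each list; some genes that this rule names are not reported here. Rounded expected counts of genes with 10 or more counts in sum (18275, the 10 genes among them) were compared by a two-sided exact binomial test (TMM sizes, edgeR 4.0.16; 0.5 added for ratios; Clopper-Pearson intervals). With 1 library on each side no residual degrees of freedom exist. The test was run on simulated data drawn with counting error only, which cannot show how it behaves under further spread between libraries. The GC trend is the median log2 ratio in 40 bins of genes with a mean count of 100 or more. Reads without molecular identifiers are not independent, so intervals cover counting error only. Alternatives were DESeq2 1.42.0 size factors, total counts, GC removal, other count filters, posterior means, FPKM, an edgeR exact test and each library alone. R 4.3.3, Python 3.11.15, scipy 1.17.1 and pandas 2.3.3 were used.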

Additional observations from a re-analysis of the deposited data

How the results depend on the processing

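Of 89 alternative log2 ratios of the 10 genes, 75 kept their direction and call. Of the genes that were not called, Spry4 turned to -0.29 with the GC trend removed, and Dusp6, at -0.00, turned to 0.12 there, to 0.0073 with DESeq2 size factors, 0.44 with total counts and 3.5e-05 with posterior mean counts; none of these was called. With the GC trend removed, the count of genes called higher went from 4 to 0 and that of genes called lower from 2 to 0, and the log2 ratio of Etv4 turned to -0.81. The count called lower was 1 with DESeq2 size factors and 0 with total counts. The Etv5 share of PEA3 TPM was 63.7% by posterior means, against 66.3%. Posterior means also put Ptpn6 at 71.9 TPM, against 11.8, with most of it on short transcripts that had 0 expected counts. No paired analysis was possible because the labels hold 1 group. Depth limits Nell2 most, at 11 and 36 counts.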
